A study of Mus musculus with 48 samples.

Results

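Chemokine ligand genes encode small secreted proteins that attract white blood cells. They were followed here in mouse small intestine from birth to week 4. The genes were taken by name, as every symbol of the Ccl or Cxcl series together with Cx3cl1 and Xcl1, which gave 39 of the 54532 genes in the count table. The series catalogued RNA of the postnatal small intestine over the period of susceptibility to necrotizing enterocolitis, a severe bowel inflammation of the newborn with tissue death. Each sample was total RNA of a full-thickness piece of bowel, 2 cm long, taken either from the duodenum just beyond the stomach outlet or from the ileum just before the caecum. All animals were C57BL/6J mice of both sexes, with no treatment or engineered allele named, and most litters gave animals for more than 1 age. The 16 groups were the duodenum and the ileum at days 0, 2, 4, 6 and 8 and at weeks 2, 3 and 4. Pups were nursed until about week 3 and ate chow afterwards, so the week 4 groups differ from the day 0 groups in diet as well as in age. Housing was called standard germ-free by the submitters, and whether these animals carried microbes was not settled. Of 48 samples, 46 were used, with 3 in each group except day 6, which has 2 in each region because the day 6 samples numbered 3 look exchanged between the regions.

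Chemokines bind receptors on passing or resident leukocytes and draw them along a gradient. Ccl25 and Ccl28 are made by gut and other mucosal epithelium and attract lymphocytes that carry the receptors Ccr9 and Ccr10, among them T cells and antibody-secreting cells. Cxcl9, Cxcl10 and Cxcl11 are induced by interferon and act on Cxcr3, Cxcl13 and Ccl21a organise lymphoid tissue, and Cxcl1 and Cxcl2 attract neutrophils.

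Total counts ran from 16824021 to 65042327 per sample. Levels are given as CPM, counts per megacount of library, scaled between libraries by the trimmed mean of M values. The ileal genes Fabp6 and Slc10a2 together read 99.3 to 2218 CPM in ileum and 1.04 to 1.58 CPM in duodenum at week 4, and the duodenal gene Pdx1 was lower in the ileum on average over ages (log2 difference -5.09). Smooth muscle markers summed to 3.41 to 156 CPM over all groups, although the samples are described as full thickness. Of the 46 samples, 14 held the Y-linked transcript Ddx3y without Xist, 30 held Xist without Ddx3y, and 2 held both, each at 10 CPM or more. Those 2 were day 0 duodenum samples 2 and 3, with 704 and 687 CPM of Xist beside 19.9 and 21.1 CPM of Ddx3y. No day 6, day 8 or week 4 sample held Ddx3y alone, so the sexes were unevenly spread over ages. The labels do not say which samples came from the same animal, so p-values measure the spread between these samples. In bulk tissue, fewer cells of a type and less RNA per cell cannot be told apart.

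Promoter sequence is shown for 4 members, chosen after their values were seen. The neutrophil attractants Cxcl1, Cxcl2 and Cxcl3 are shown because, of 28 members with a RefSeq promoter, they alone carried the NF-kB letters, GGGA and TTTCC with any base between them, within 200 bases upstream of the start. Ccl25 is shown because it had the highest mean CPM of the members. The windows are 100 bases long on the + strand of GRCm38.p6, from RefSeq starts, and lie at chr5:90891115-90891214, chr5:90903769-90903868, chr5:90785971-90786070 and chr8:4349488-4349587 in the order printed. Capitals mark the NF-kB letters in the first 3 and a TATA box (TATAAA) in the last.
Cxcl1: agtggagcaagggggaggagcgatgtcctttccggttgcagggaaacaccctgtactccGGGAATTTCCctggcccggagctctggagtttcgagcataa
Cxcl2: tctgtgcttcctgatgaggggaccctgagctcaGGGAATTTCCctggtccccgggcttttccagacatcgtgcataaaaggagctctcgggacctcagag
Cxcl3: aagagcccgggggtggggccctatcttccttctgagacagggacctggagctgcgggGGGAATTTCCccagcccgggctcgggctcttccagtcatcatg
Ccl25: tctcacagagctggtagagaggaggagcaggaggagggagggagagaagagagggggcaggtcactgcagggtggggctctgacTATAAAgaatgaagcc
Both strands were searched. Other forms of the NF-kB site were not looked for, so members without these letters may still carry one. The NF-kB letters occurred in 3 of 34 RefSeq promoter windows of 28 members and in 0.286% of 32851 windows of the same length over all genes. They ended 62, 88 and 64 bases before the start in Cxcl1, Cxcl2 and Cxcl3, and all 3 had the same 10 bases. TATAAA occurred in 10 of the 34 windows and in 9.96% of all windows. In Ccl25 it ran from -16 to -11 before the downstream of its RefSeq starts and overlapped a match to the CDX letters TTTATNG on the other strand. Cxcl1 and Cxcl2, despite their shared letters, were among the faintest members that could be tested (0.0785 and 0.0672 CPM on average), and Cxcl3 was too low to test.

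The members ranged from absent to abundant. Ccl25 averaged 208 CPM over the 46 samples, Cx3cl1 116, Ccl6 86.0, Ccl9 31.3, Ccl28 28.4, Cxcl16 14.4 and Ccl24 5.08 CPM. These 7 were the members above 3 CPM, and Ccl20 at 2.91 CPM lay just below. Per kilobase of exon the order changed, with Ccl6 at 47.9, Cx3cl1 at 29.6, Ccl25 at 28.0 and Ccl9 at 10.3 CPM per kilobase. The filter on low counts passed 25 members, and 14 were too low to test. Of those 14, Ccl26 and Ccl21b had no count in any of the 46 samples, and Ccl1, Ccl7, Ccl8, Ccl19, Ccl27b and Cxcl17 never had more than 3 counts in a sample. The other 6, Ccl4, Ccl12, Ccl17, Cxcl3, Cxcl5 and Cxcl15, averaged between 0.0355 and 0.0784 CPM. Chromosome 11 holds 12 members and chromosome 5 holds 11, most of them in tandem arrays of related genes.

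**Figure D1:**
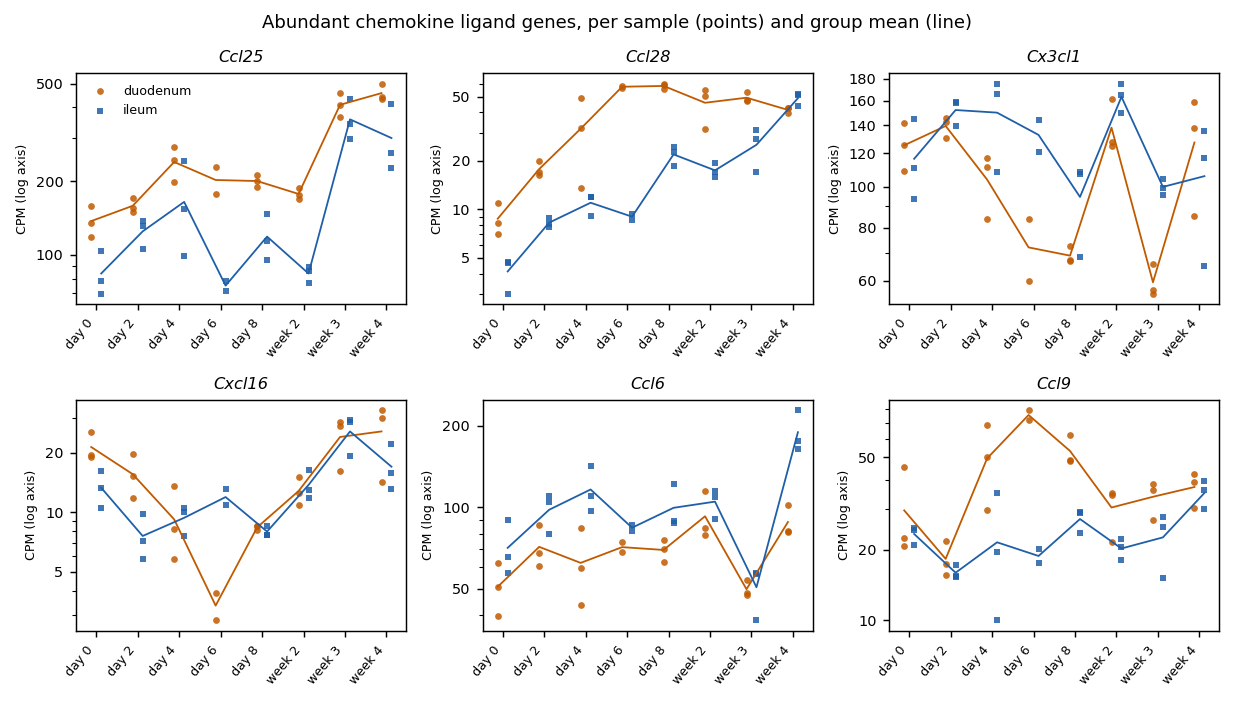
Level of 6 abundant chemokine ligand genes, in CPM on a log axis that differs between panels, at each age in duodenum (circles) and ileum (squares). Points are samples and lines join group means. Ccl25 is highest at weeks 3 and 4 in both regions, Ccl28 is already near 58 CPM in the duodenum at day 8 but reaches 49.0 CPM in the ileum at week 4, and Cx3cl1 in the duodenum is low at days 6 and 8 and again at week 3.

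Most members that could be tested changed over the 8 ages. In a test of any age difference, 21 of the 25 tested members passed in the duodenum, where 67.4% of all genes tested did, and 21 of 25 in the ileum, where the background was 58.7%. Between day 0 and week 4, 15 of 25 members passed in the duodenum against 40.5% of all genes, 11 higher and 4 lower. In the ileum 11 of 25 passed against 41.9% of all genes, 10 higher and 1 lower. Among all genes the calls split evenly, with 20.4% higher and 20.1% lower in the duodenum and 21.5% higher and 20.4% lower in the ileum. The median log2 change of the tested members was 0.38 in the duodenum and 1.42 in the ileum, beside -0.02 and 0.08 over all genes. Samples of day 0 and week 4 did not overlap for 15 members in the duodenum (52.7% of all genes) and 16 in the ileum (46.6% of all genes). Both counts of calls were the same with a sex index in the model, 15 and 11. Without the 2 day 0 duodenum samples that held both Xist and Ddx3y, 9 members passed in the duodenum, all among the 15, and 5521 of 23521 genes passed. That fit leaves 1 day 0 duodenum sample, which is assumed to vary like the other groups. The calls it lost were those of Ccl6, Ccl20, Ccl24, Cxcl10, Cxcl12 and Cxcl14. Ccl5, Ccl22 and Cxcl13 had no count in the remaining sample, so that fit gives no size for their rise.

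**Figure D2:**
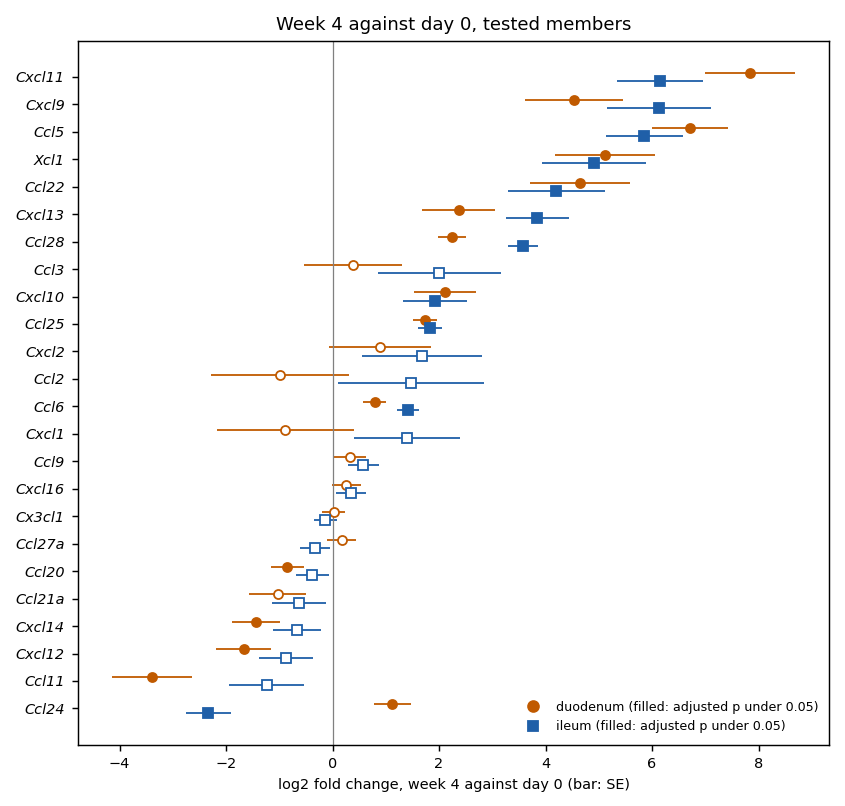
Log2 fold change from day 0 to week 4 of 24 tested members in each region, with bars of 1 standard error, and filled symbols where the adjusted p was under 0.05. Ccl21d is not drawn because only 4 samples had any of its counts. Cxcl11 lies farthest to the right in both regions, followed by Ccl5 in the duodenum and by Cxcl9 and Ccl5 in the ileum, and Ccl24 is to the right in the duodenum and to the left in the ileum.

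The epithelial and mucosal ligands were the most abundant group. Of 7 tested members, 2 rose and 2 fell in the duodenum between day 0 and week 4, beside 20.4% and 20.1% of all genes. In the ileum 2 rose and none fell, beside 21.5% and 20.4% of all genes. Ccl25 and Ccl28 were the genes that rose, in both regions.

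Ccl25 (ENSMUSG00000023235, chr8:4325210-4360020, + strand) read 118, 135 and 159 CPM in the duodenum at day 0 and 499, 441 and 431 CPM at week 4. Every week 4 value lay above every day 0 value, a 3.33-fold rise (log2 1.74, SE 0.22, adjusted p = 4.51e-08). In the ileum the day 0 values of 69.2, 104 and 78.3 CPM became 412, 226 and 261 CPM, again with no overlap, a 3.57-fold rise (log2 1.84, SE 0.22, adjusted p = 1.35e-08). Duodenal day 4 samples already read 198, 244 and 275 CPM, above all day 0 samples, a step that was not tested. Week 2 did not pass against day 0 in either region. Most of the rise came between weeks 2 and 3. Duodenal values went from 169, 187 and 175 CPM to 408, 456 and 364 CPM (2.31-fold, adjusted p = 6.53e-05), and ileal values from 76.5, 86.2 and 88.9 CPM to 343, 432 and 296 CPM (4.26-fold, adjusted p = 1.97e-09). No later call followed from week 3 to week 4. Over the same step the summed epithelial markers (Epcam, Cdh1, Vil1, Krt8 and Krt20) went from 3814-4118 CPM to 5762-6758 CPM in the duodenum. In the ileum that sum went from 3618-3973 CPM to 8380.4-11126 CPM, and their part in the result was not tested. Exons of Ccl25 share 204 bases with Elavl1 on the opposite strand, and whether counting used strand is not given in the sources used here.

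Ccl28 (chr13:119623819-119654359, + strand), which attracts antibody-secreting cells to mucosa, rose in both regions and was already high in the duodenum by day 8. Duodenal values were 7.01, 8.29 and 11.0 CPM at day 0, reached 55.7, 59.2 and 60.2 CPM at day 8, and stood at 42.4, 42.3 and 39.6 CPM at week 4. Ileal values were 4.66, 4.72 and 2.99 CPM at day 0, 24.4, 22.7 and 18.7 CPM at day 8, and 51.8, 51.6 and 43.6 CPM at week 4. All day 8 and week 4 samples of a region lay above its day 0 samples. From day 0 to week 4 the gene rose 4.72-fold in the duodenum (log2 2.24, SE 0.26, adjusted p = 5.97e-09) and 12.0-fold in the ileum (log2 3.58, SE 0.28, adjusted p = 2.82e-13). By week 2 it had already risen 5.22-fold in the duodenum (45.9 against 8.76 CPM, adjusted p = 9.33e-09) and 4.27-fold in the ileum (17.5 against 4.12 CPM, adjusted p = 3.32e-07). Between weeks 3 and 4 it rose further in the ileum (1.95-fold, adjusted p = 0.0061, and 0.189 with all 48 samples). The larger rise of the ileum was itself tested, as a difference of log2 changes of 1.35 (SE 0.36, adjusted p = 0.0227). That difference lost its call with all 48 samples (adjusted p = 0.251), without duodenum day 0 sample 3 (1.09, adjusted p = 0.0878), week 4 sample 1 (1.32, adjusted p = 0.0518) or week 4 sample 3 (1.27, adjusted p = 0.0616), without ileum day 0 sample 3 (1.15, adjusted p = 0.0666), and without the 2 day 0 duodenum samples with both sex transcripts (1.02, adjusted p = 0.23).

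Cx3cl1 (chr8:94772009-94782427, + strand), a membrane-bound chemokine also called fractalkine, was low in the duodenum at 2 separate times, days 6 to 8 and week 3. Duodenal values were 141, 126 and 109 CPM at day 0, 59.9 and 84.1 at day 6, 72.6, 67.1 and 66.7 at day 8, 161, 125 and 128 at week 2, 65.7, 55.9 and 57.0 at week 3, and 85.5, 159 and 138 at week 4. All samples of days 6 and 8 lay below those of day 0, a difference that was not tested on its own. The week 3 samples lay below all samples of weeks 2 and 4, a fall of 2.32-fold (adjusted p = 5.91e-05) and then a rise of 2.14-fold (adjusted p = 0.000506). In the ileum 165, 149 and 175 CPM at week 2 became 99.7, 95.7 and 105 CPM at week 3, a 1.63-fold fall (adjusted p = 0.0127). The log2 difference between week 4 and day 0 was 0.02 (SE 0.22) in the duodenum and -0.14 (SE 0.22) in the ileum, and neither passed the test.

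Cxcl16 (chr11:70453983-70459984, - strand), a membrane-anchored ligand of Cxcr6, was lowest in the duodenum at day 6. Its duodenal values were 19.4, 19.1 and 25.5 CPM at day 0, 2.84 and 3.89 CPM at day 6, and 14.1, 32.8 and 29.8 CPM at week 4. Both day 6 samples lay below every other duodenum sample. Ileal values moved less, with 10.8 and 13.0 CPM at day 6, and the age pattern differed between the regions (adjusted p = 0.000766). From week 2 to week 3 the gene rose 1.88-fold in the duodenum (adjusted p = 0.0165) and 1.87-fold in the ileum (adjusted p = 0.0127). These calls were marginal. Both were lost with all 48 samples (adjusted p = 0.104 and 0.0785). The duodenal one was lost without week 2 sample 2 (adjusted p = 0.0561) or 3 (adjusted p = 0.0866) or week 3 sample 1 (adjusted p = 0.0717) or 2 (adjusted p = 0.0989), and the ileal one without week 2 sample 3 (adjusted p = 0.0658) or week 3 sample 2 (adjusted p = 0.0566). Its duodenal fall to week 2 (log2 -0.74, adjusted p = 0.047) was lost without any one of day 0 samples 1, 2 or 3 or week 2 samples 2 or 3, with adjusted p between 0.0615 and 0.205, and also with the replicate block (adjusted p = 0.06), with no filter (adjusted p = 0.0718), with all 48 samples (adjusted p = 0.176) and without day 0 samples 2 and 3 together (adjusted p = 0.339). Exons of Cxcl16 share 552 bases with Zmynd15 on the opposite strand.

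Cxcl14, made by epithelium and stroma, took different courses in the regions. In the ileum it went from 1.07, 1.04 and 2.33 CPM at day 0 to 6.47, 6.97 and 4.81 CPM at week 2, with no overlap (4.05-fold, adjusted p = 0.00103), and was back at 2.04, 1.74 and 2.75 CPM by week 3 (2.8-fold lower, adjusted p = 0.00744). With all 48 samples neither step passed (adjusted p = 0.0604 and 0.116). In the duodenum it was low at days 6 and 8, between 0.0879 and 0.232 CPM, and lowest in day 4 sample 2, at 0.0493 CPM beside 0.896 and 0.685 CPM in the other day 4 samples. It read 1.77, 1.14 and 2.35 CPM at day 0 and 0.574, 0.973 and 0.389 CPM at week 4. That fall (log2 -1.44, SE 0.45, adjusted p = 0.00916) lost its call with all 48 samples (adjusted p = 0.105), without duodenum day 0 sample 3 (-1.13, adjusted p = 0.0713), without week 4 sample 3 (-1.17, adjusted p = 0.066), or without the 2 day 0 samples with both sex transcripts (adjusted p = 0.0732). Ccl20, the ligand of Ccr6, falls outside the rule for named genes and is given because it was the remaining call of this group. It read 3.08, 4.55 and 8.33 CPM in the duodenum at day 0 and 2.45, 3.59 and 2.86 CPM at week 4, overlapping groups (log2 -0.85, SE 0.31, adjusted p = 0.0257). Day 0 sample 3 held its highest value of all 46 samples, and without it the call was lost (adjusted p = 0.473), as it was with only the compared groups (adjusted p = 0.0694) and without week 4 sample 1 (adjusted p = 0.128) or 3 (adjusted p = 0.0797). In the ileum it fell 2.39-fold to week 3 and rose 3.37-fold to week 4 (adjusted p = 0.00414 and 0.000258).

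All 3 interferon-induced ligands of Cxcr3 rose between day 0 and week 4 in the duodenum (20.4% of all genes) and the ileum (21.5%). Their genes lie side by side on chromosome 5, from 92321347 to 92365485, on the - strand. At day 0 Cxcl9 and Cxcl11 were almost silent, below 0.1 CPM in all samples, and at week 4 the 3 genes read between 0.886 and 9.88 CPM.

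Cxcl11 rose between weeks 2 and 3. It read 0, 0.507 and 0 CPM in the duodenum at week 2, 1.22, 3.87 and 2.39 CPM at week 3, then 9.88, 9.12 and 7.64 CPM at week 4. In the ileum it read 0.190, 0.360 and 0.360 CPM at week 2, 2.56, 3.81 and 5.98 at week 3, and 5.07, 3.26 and 4.01 at week 4. Weeks 2 and 3 did not overlap in either region (log2 4.00, adjusted p = 3.59e-05 in the duodenum, and log2 3.74, adjusted p = 1.64e-05 in the ileum). From day 0, where the 3 duodenum samples together held 4 counts and the 3 ileum samples 5, the rise to week 4 was 230.1-fold in the duodenum (log2 7.85, SE 0.84, adjusted p = 8.34e-10) and 71.3-fold in the ileum (log2 6.15, SE 0.81, adjusted p = 6.51e-08). All 14 duodenal week 2 counts came from sample 2, so that the step cannot be sized without it, and it was 3.27 without sample 3. The further duodenal rise to week 4 (3.59-fold, adjusted p = 0.0231) lost its call without week 3 sample 1 (adjusted p = 0.135) or 3 (adjusted p = 0.0782), or week 4 sample 1 (adjusted p = 0.0568) or 2 (adjusted p = 0.0644). The annotation lists Cxcl11 as a polymorphic pseudogene, a gene that is disrupted in the reference strain. The mice here were of that strain, C57BL/6J, so the RNA of Cxcl11 does not show that a working ligand was made. Its exons share 1582 bases with the pseudogene Gm2673 on the opposite strand.

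Cxcl9 had risen by week 2 in both regions. All day 2 samples already lay above the day 0 samples of their region, a step that was not tested. They read 1.54, 0.575 and 0.443 CPM in the duodenum and 0.380, 0.444 and 0.119 CPM in the ileum. Duodenal values of 0.0277, 0 and 0.0911 CPM at day 0 became 0.744, 0.471 and 0.504 CPM by week 2 and 0.886, 1.53 and 1.31 CPM at week 4. Ileal values of 0.0739, 0 and 0.0475 CPM at day 0 became 0.652, 0.297 and 0.327 CPM by week 2 and 4.37, 3.54 and 1.74 CPM at week 4. Neither week overlapped day 0 in either region. The rise by week 4 was 23.3-fold in the duodenum (log2 4.54, SE 0.92, adjusted p = 0.00012) and 69.9-fold in the ileum (log2 6.13, SE 0.97, adjusted p = 2.33e-06), with 6 and 4 counts at day 0. Without duodenum day 0 sample 3 the duodenal value was 5.95, and without samples 2 and 3 it was 5.32. The ileal rise by week 2 (log2 3.21, adjusted p = 0.0308) was lost without any one of the day 0 samples or without week 2 sample 1, with adjusted p from 0.0524 to 0.128, and with no filter on low counts (adjusted p = 0.0708). The duodenal one (log2 3.43, adjusted p = 0.00647) was 4.83 without day 0 sample 3 and lost its call without day 0 samples 2 and 3 (4.18, adjusted p = 0.105).

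Cxcl10 was present from birth and rose between weeks 3 and 4. In the duodenum it read 1.22, 0.319 and 0.711 CPM at day 0, 0.555, 0.488 and 0.668 at week 3, and 2.42, 3.89 and 3.68 at week 4. Ileal values were 0.628, 1.09 and 0.333 CPM at day 0, 0, 0.193 and 0.145 at week 3, and 1.17, 3.60 and 2.81 at week 4. All week 4 samples lay above all day 0 and week 3 samples of their region. From week 3 to week 4 it rose 5.79-fold in the duodenum (adjusted p = 0.0028) and 22.9-fold in the ileum (log2 4.52, adjusted p = 2.32e-05), the latter over 7 counts at week 3, and the ileal log2 value was 3.88 without week 3 sample 1 and 5.17 without week 3 sample 2. From day 0 it rose 4.34-fold in the duodenum (log2 2.12, SE 0.58, adjusted p = 0.00327) and 3.8-fold in the ileum (log2 1.93, SE 0.60, adjusted p = 0.00859). The ileal call was lost without ileum day 0 sample 3 (1.57, adjusted p = 0.0618) or week 4 sample 2 (1.58, adjusted p = 0.053), and the duodenal call without day 0 samples 2 and 3 (1.45, adjusted p = 0.223). Exons of Cxcl10 share 133 bases with Art3 on the opposite strand.

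**Figure D3:**
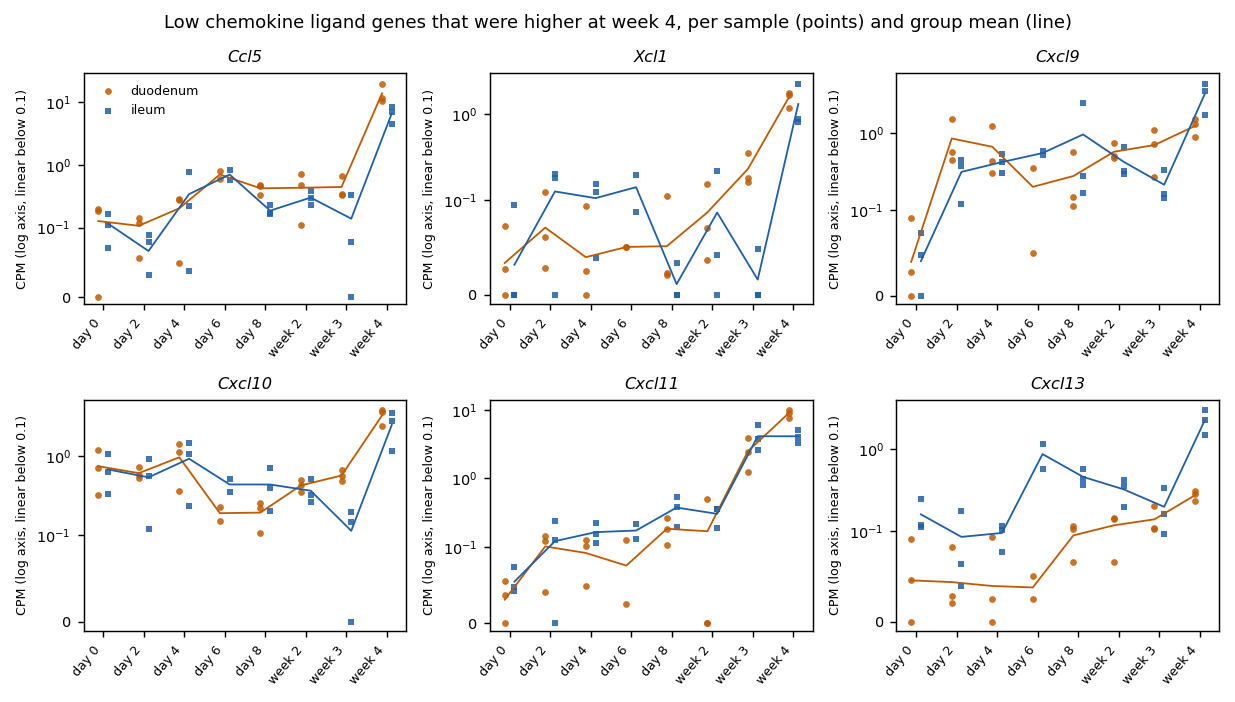
Level of 6 scarce chemokine ligand genes that were higher at week 4, in CPM on an axis that is logarithmic above 0.1 and linear below it. Points are samples and lines join group means. Cxcl11 climbs at week 3, whereas Ccl5, Xcl1 and Cxcl10 climb at week 4, and Cxcl13 is higher in ileum than in duodenum at week 4.

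Of 6 tested members among the other CC and C ligands, 4 rose in the duodenum (20.4% of all genes) and the ileum (21.5%). They were Ccl5, Ccl6, Xcl1 and Ccl22 in both regions, from day 0 to week 4. Ccl5, a T cell and natural killer cell product also called RANTES, had the largest rise of them. It read 0.340, 0.663 and 0.334 CPM in the duodenum at week 3, then 19.6, 10.3 and 11.7 CPM at week 4. In the ileum it read 0.0800, 0.338 and 0 CPM at week 3, then 8.51, 4.50 and 6.88 CPM at week 4. No earlier sample of either region reached 1 CPM. Between weeks 3 and 4 it rose 31.6-fold in the duodenum (log2 4.98, SE 0.63, adjusted p = 2.71e-07) and 47.1-fold in the ileum (log2 5.56, SE 0.72, adjusted p = 3.64e-07). From day 0 the log2 change was 6.71 in the duodenum (15 counts at day 0, adjusted p = 6.57e-10) and 5.86 in the ileum (10 counts, adjusted p = 1.59e-08). Single samples with few counts set the size of some of these: the ileal step was 7.14 without week 3 sample 2, and the duodenal change from day 0 was 7.53 without day 0 sample 3.

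Xcl1, lymphotactin, the ligand of Xcr1 on cross-presenting dendritic cells, also rose in both regions. It read 0.0277, 0 and 0.0729 CPM in the duodenum at day 0 and 1.69, 1.20 and 1.77 CPM at week 4, and 0, 0 and 0.0950 CPM in the ileum at day 0 and 0.874, 0.807 and 2.27 CPM at week 4. Neither region's groups overlapped. It rose by log2 5.12 in the duodenum (SE 0.94, adjusted p = 2.91e-05) and 4.91 in the ileum (SE 0.97, adjusted p = 7.5e-05), over 5 and 4 counts at day 0. These values were 6.29 without duodenum day 0 sample 3 and 4.25 without ileum week 4 sample 3, and ileum day 0 sample 3 held all 4 ileal day 0 counts. From week 3 to week 4 it rose 6.83-fold in the duodenum (adjusted p = 0.0142), a call lost without week 3 sample 1 (adjusted p = 0.0785) or 3 (adjusted p = 0.0663). In the ileum 75 counts at week 4 stood against 1 at week 3, a ratio whose 95% counting interval ran from 13.5 to 3099, and that count was in sample 3. Exons of Xcl1 share 98 bases with Gm20743 on the opposite strand.

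Ccl22, a dendritic cell product that acts on Ccr4, rose from 0, 0 and 0.0547 CPM to 0.417, 0.723 and 0.990 CPM in the duodenum. Ileal values went from 0.0370, 0.0418 and 0.0475 CPM to 0.757, 0.745 and 1.07 CPM. The groups did not overlap. In the duodenum 70 counts at week 4 stood against 3 at day 0, all 3 in day 0 sample 3, with a 95% counting interval of the ratio from 8.43 to 127 (adjusted p = 0.000118). The ileal rise was 18.4-fold over 4 counts at day 0 (log2 4.20, SE 0.92, adjusted p = 0.000274). Of its neighbours on chromosome 8, Cx3cl1 did not pass from day 0 to week 4 and Ccl17 was too low to test.

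T cell markers also rose by week 4. The summed level of 7 T cell genes, Cd3d, Cd3e, Cd3g, Cd4, Cd8a, Cd8b1 and Cd5, was 4.69 to 10.1 CPM in the duodenum and 2.64 to 6.37 CPM in the ileum at week 3, and 53.4 to 81.1 CPM and 43.6 to 64.8 CPM at week 4. From day 0 to week 4, 6 of the 7 rose in the duodenum (20.4% of all genes) and 7 of 7 in the ileum (21.5% of all genes). B and plasma cell markers went from 1.05-1.57 CPM at day 0 to 25.6-31.5 CPM at week 4 in the duodenum, with 6 of 6 tested genes risen. Ileal sums went from 0.887-1.496 CPM to 66.7-256 CPM, again with 6 of 6 risen. Natural killer and innate lymphoid markers summed to 35.6-48.7 CPM at week 3 and 89.8-91.3 CPM at week 4 in the duodenum, and to 29.8-57.4 and 53.1-72.4 CPM in the ileum. At week 2 the T cell sum was 4.42 to 7.40 CPM in the duodenum and 3.07 to 5.95 CPM in the ileum, overlapping week 3. Cxcl11 rose over that step. The part of these cells in the rises of Ccl5, Xcl1 and the Cxcr3 ligands was not tested.

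**Figure D4:**
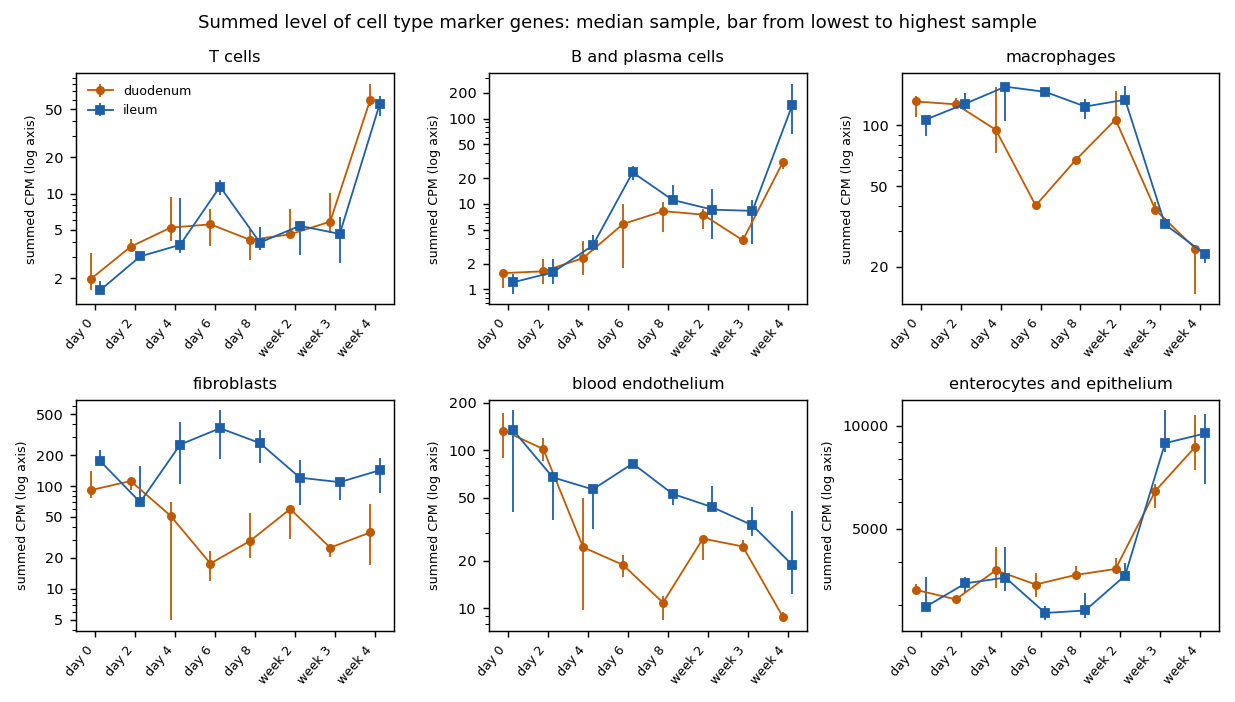
Summed CPM of the marker genes of 6 cell types at each age, on log axes that differ between panels. Symbols are the median sample and bars run from the lowest to the highest sample, in duodenum (circles) and ileum (squares). T cell and B and plasma cell sums jump at week 4 in both regions, macrophage and blood endothelium sums decline, and the epithelial sum is higher at weeks 3 and 4.

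Ccl6 (chr11:83587882-83593087, - strand) and Ccl9 (chr11:83572919-83578636, - strand), neighbouring rodent genes for macrophage-derived ligands of Ccr1, were both abundant. Ccl6 read 50.8, 39.7 and 62.1 CPM in the duodenum at day 0 and 81.3, 102 and 81.7 CPM at week 4. In the ileum it read 65.3, 57.2 and 90.0 CPM at day 0, 56.5, 57.2 and 38.3 at week 3, and 165, 175 and 229 at week 4. The day 0 and week 4 groups did not overlap in either region. From day 0 to week 4 it rose 1.73-fold in the duodenum (log2 0.79, adjusted p = 0.0026) and 2.67-fold in the ileum (log2 1.42, adjusted p = 9.27e-07). It dipped at week 3, falling 1.86-fold in the duodenum (adjusted p = 0.00184) and 2.07-fold in the ileum (adjusted p = 0.000183) from week 2, and then rose 1.77-fold (adjusted p = 0.00685) and 3.74-fold (adjusted p = 2.98e-08) to week 4. The duodenal rise from day 0 had an adjusted p of 0.053 without day 0 samples 2 and 3, at log2 0.81.

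Ccl9 stood highest in the duodenum at day 6, at 79.5 and 71.9 CPM, beside 20.8, 22.5 and 45.4 CPM at day 0 and 39.1, 42.1 and 30.4 CPM at week 4. In the ileum the day 6 samples read 20.2 and 17.5 CPM, the day 0 samples 21.0, 24.9 and 24.3 CPM and the week 4 samples 35.9, 29.8 and 39.4 CPM. Its age effect passed in the duodenum (adjusted p = 3.16e-05) and marginally in the ileum (adjusted p = 0.0467), and the age pattern differed between regions (adjusted p = 0.0298). The ileal call was lost with no filter (adjusted p = 0.166), with all 48 samples (adjusted p = 0.205) and with the sex index (adjusted p = 0.0969). It was also lost without any one ileum sample other than day 4 samples 1 and 2, day 8 sample 2, week 3 samples 2 and 3 and week 4 sample 2, with adjusted p from 0.0502 to 0.131. The regional call was lost with no filter (adjusted p = 0.109), with all 48 samples (adjusted p = 0.597), and without any one of day 6 samples 1 or 2 of either region, duodenum week 4 samples 1 or 3 or ileum week 4 sample 3 (adjusted p from 0.0504 to 0.119). Week 4 did not pass against day 0 in either region (log2 0.33, SE 0.30 in the duodenum, and 0.58, SE 0.30 in the ileum). Without duodenum day 0 sample 3, its highest day 0 sample, the duodenal value was 0.83 and passed (adjusted p = 0.0317). Macrophage markers were lower in sum at week 4 than at day 0 in both regions. The sum of 7 of them, Adgre1, Csf1r, Cd68, C1qa, C1qb, Mrc1 and Cd163, went from 109-140 CPM at day 0 to 38.9-41.4 CPM at day 6 and 14.7-25.3 CPM at week 4 in the duodenum, and from 88.6-109 CPM at day 0 to 20.9-23.6 CPM at week 4 in the ileum. From week 2 to week 3, when Ccl6 fell, the sum went from 102-147 to 36.3-41.7 CPM in the duodenum. In the ileum it went from 127-157 to 30.8-34.9 CPM over that step. Of the 7, 6 fell in the duodenum (20.1% of all genes) and 2 in the ileum (20.4%) between day 0 and week 4. The part of these cells in the levels of Ccl6 and Ccl9 was not tested.

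Among the ligands that attract monocytes and eosinophils, 3 of 7 could be tested. In the duodenum 1 rose and 1 fell, beside 20.4% and 20.1% of all genes, and 1 fell in the ileum (20.4% of all genes). Ccl24, or eotaxin-2, an eosinophil attractant acting on Ccr3, went opposite ways in the regions. In the duodenum it read 3.35, 4.01 and 5.16 CPM at day 0, 22.7, 9.68 and 11.2 CPM at week 2, then 8.99, 12.5 and 5.76 CPM at week 4. In the ileum it read 3.03, 3.72 and 2.68 CPM at day 0, 2.66, 1.38 and 2.65 CPM at week 2, then 0.932, 0.217 and 0.868 CPM at week 4. All duodenum week 4 samples lay above the day 0 samples and all ileum week 4 samples below them. The duodenal rise was 2.18-fold (log2 1.12, SE 0.35, adjusted p = 0.00937) and the ileal fall 5.04-fold (log2 -2.33, SE 0.43, adjusted p = 2.34e-05). The difference between the regions' changes was tested directly, at log2 -3.45 (SE 0.55, adjusted p = 0.00016), and passed in all alternatives run. The duodenal rise alone was weaker, with adjusted p of 0.0512 without day 0 sample 1, 0.0663 without week 4 sample 2 and 0.0506 without day 0 samples 2 and 3. At week 2 the duodenal rise was 3.47-fold (adjusted p = 0.000205). The following duodenal fall to week 3 (log2 -1.17, adjusted p = 0.0138) was lost without week 2 sample 1 (-0.69, adjusted p = 0.223), week 3 sample 1 (-1.07, adjusted p = 0.0679) or week 3 sample 2 (-1.15, adjusted p = 0.0502). The ileal fall from week 3 to week 4 (log2 -1.45, adjusted p = 0.0184) was lost with only the compared groups (-1.35, adjusted p = 0.188), without ileum week 3 sample 3 (-1.31, adjusted p = 0.0513) or week 4 sample 2 (-0.92, adjusted p = 0.181).

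Eosinophil markers (Epx, Prg2 and Siglecf) summed to 0.444-0.948 CPM at day 0 and 6.94-10.03 CPM at week 4 in the duodenum, and to 0.296-0.585 and 3.38-13.6 CPM in the ileum, where Epx was at 0 at week 4. Of the 2 that could be tested, 1 rose and 1 fell in the duodenum, beside 20.4% and 20.1% of all genes. In the ileum 1 rose (21.5% of all genes). The summed rise was therefore not shared by all of these markers. Ccl11, or eotaxin-1, was high in newborn duodenum, at 1.11, 2.00 and 2.70 CPM at day 0, and read 0.183, 0.0278 and 0.354 CPM at week 4, without overlap. This 10.5-fold fall (log2 -3.39, SE 0.75, adjusted p = 0.000355) was already 5.83-fold at week 2 (adjusted p = 0.00708). It was -4.10 without week 4 sample 3 and -2.58 without day 0 samples 2 and 3 (adjusted p = 0.0406). The week 2 fall, log2 -2.54, was -3.14 without week 2 sample 2 and lost its call without day 0 samples 2 and 3 (-1.76, adjusted p = 0.246). Ileal values of 1.26, 0.919 and 1.05 CPM at day 0 and 0.291, 0.776 and 0.200 CPM at week 4 did not pass (log2 -1.24, SE 0.71, adjusted p = 0.162). Ccl2 stayed at or below 0.345 CPM in all samples.

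Of 4 tested lymphoid and homeostatic ligands, Cxcl13 alone rose, in the duodenum (20.4% of all genes) and the ileum (21.5%) by week 4. Cxcl12 fell in the duodenum (20.1%) and none fell in the ileum (20.4%). Cxcl13, which draws B cells into follicles, read 0.111, 0.251 and 0.119 CPM in the ileum at day 0, 1.17 and 0.582 CPM at day 6, 0.160, 0.0965 and 0.338 CPM at week 3, then 1.51, 3.04 and 2.27 CPM at week 4. In the duodenum it read 0, 0.0455 and 0.0911 CPM at day 0 and 0.235, 0.306 and 0.283 CPM at week 4. Week 4 lay above day 0 in every sample. It rose 14.4-fold in the ileum (log2 3.85, SE 0.60, adjusted p = 1.43e-06) and 5.16-fold in the duodenum (log2 2.37, SE 0.68, adjusted p = 0.00476), the latter over 6 counts at day 0. Without duodenum day 0 sample 3 the duodenal value was 3.72. The ileal step from week 3 (log2 3.51, adjusted p = 3.06e-05) was 4.10 without week 3 sample 3. Cr2 and Fcer2a, listed for follicular dendritic cells, do not tell those cells from B cells. At week 4 these genes summed to 21.7-76.7 CPM in the ileum and 8.12-8.70 CPM in the duodenum. The day 0 sums were 0.190-0.459 and 0.0547-1.32 CPM. The part of follicular dendritic cells and of B cells in the rise of Cxcl13 was not tested.

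Cxcl12, the stromal ligand of Cxcr4, read 1.41, 2.05 and 4.23 CPM in the duodenum at day 0 and 0.104, 1.20 and 1.17 CPM at week 4, without overlap. The fall (log2 -1.67, SE 0.52, adjusted p = 0.00953) lost its call without duodenum day 0 sample 3 (-1.03, adjusted p = 0.15), without week 4 sample 1 (-1.10, adjusted p = 0.0881), with only the compared groups (adjusted p = 0.0764) or with all 48 samples (adjusted p = 0.0525). Without day 0 samples 2 and 3 it was -0.79 (adjusted p = 0.443). Blood endothelial markers (Pecam1, Cdh5, Kdr and Tek), which mark one of its sources, summed to 89.9-172 CPM at day 0 and 8.49-9.46 CPM at week 4 in the duodenum, and their part was not tested. Ccl21a, a ligand of Ccr7 named after its values were seen, fell 5.15-fold from week 2 to week 3 in the duodenum (1.99 to 0.376 CPM, adjusted p = 0.000939). Its near-identical copy Ccl21d was listed with counts in 4 samples and at 0 in the other 42, so the division of reads between the copies is uncertain.

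The neutrophil-attracting CXC ligands stayed scarce throughout. None of the 5 averaged above 0.0785 CPM and 2 could be tested. Neither passed between day 0 and week 4 in the duodenum (40.5% of all genes) or the ileum (41.9%). Neutrophil markers meanwhile went from 9.37-35.2 CPM at day 0 to 1.83-4.11 CPM at week 4 in the duodenum, and ileal sums went from 13.7-23.3 to 3.01-5.24 CPM.

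From day 0 to week 2, 7 of 25 members passed in the duodenum (23.5% of all genes), 4 higher (12.1%) and 3 lower (11.3%). In the ileum 3 passed (12.3% of all genes, with 6.43% higher and 5.92% lower), all of them higher. Between weeks 2 and 3, 8 passed in the duodenum (18.3% of all genes), 3 higher (7.7%) and 5 lower (10.6%), and 7 in the ileum (26.8% of all genes), 3 higher (12.9%) and 4 lower (13.9%). Cxcl16, Ccl25 and Cxcl11 made up the rises of this step in both regions. Between weeks 3 and 4, 6 passed in the duodenum (12.7% of all genes, with 7.75% higher and 4.96% lower), all of them higher. In the ileum 9 passed (16.1% of all genes), 8 higher (8.26%) and 1 lower (7.81%). Without day 0 samples 2 and 3 of the duodenum, the duodenal count from day 0 to week 2 was 3. Comparisons that have an age in common share its samples.

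Regional differences ran in both directions. On average over ages 14 of 25 members differed between ileum and duodenum, 10 higher and 4 lower in the ileum, beside 62.1% of all genes (31.9% higher, 30.2% lower). Those lower in the ileum were Ccl24 (log2 -1.68, SE 0.13, adjusted p = 3.4e-13), Ccl28 (-1.24, SE 0.09, adjusted p = 6.36e-14), Ccl9 (-0.74, SE 0.11) and Ccl25 (-0.71, SE 0.08, adjusted p = 1.11e-09). Those higher were led by Cxcl13 (1.94, SE 0.25, adjusted p = 1.59e-08) and included Cxcl14 (1.43, SE 0.17), Cxcl12 (1.24, SE 0.19), Ccl22 (1.13, SE 0.32), Ccl11 (0.66, SE 0.27, adjusted p = 0.0343), Ccl6 (0.49, SE 0.08) and Cx3cl1 (0.33, SE 0.08). By role, 3 of 4 lymphoid and homeostatic ligands were higher in the ileum and none lower, while none of the 3 Cxcr3 ligands differed. Ccl21a, Cxcl1 and Cxcl2 complete the list and lie outside the rule for named genes. Ileum day 2 sample 1 held all Cxcl1 counts of its group. Ileum day 6 sample 2 and week 3 sample 1 held all Cxcl2 counts of theirs. Without any of these a group has no counts, so those fits cannot decide whether the calls hold. The call of Cxcl2 was lost without ileum week 4 sample 2 (adjusted p = 0.0505) and in DESeq2 (adjusted p = 0.0599). Its duodenum groups of days 6 and 8 had no counts, so the size of its regional difference is uncertain. The call of Ccl11 was lost with the replicate block (log2 0.65, adjusted p = 0.0895), with no filter on low counts (0.65, adjusted p = 0.0661) and with all 48 samples (0.34, adjusted p = 0.344). It was also lost without any one of 8 samples, with adjusted p from 0.0507 (ileum day 8 sample 1) to 0.116 (ileum week 3 sample 2). The others were duodenum day 6 sample 2 and day 8 sample 1, and ileum day 4 sample 3, day 6 sample 1, week 2 sample 1 and week 4 sample 2. Fibroblast markers (5 of 5, median log2 2.06) and smooth muscle markers (4 of 4, median 2.14) were also higher in the ileum, and 4 of 5 pancreatic acinar markers were lower (median -6.55). Their part in the regional values was not tested.

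**Figure D5:**
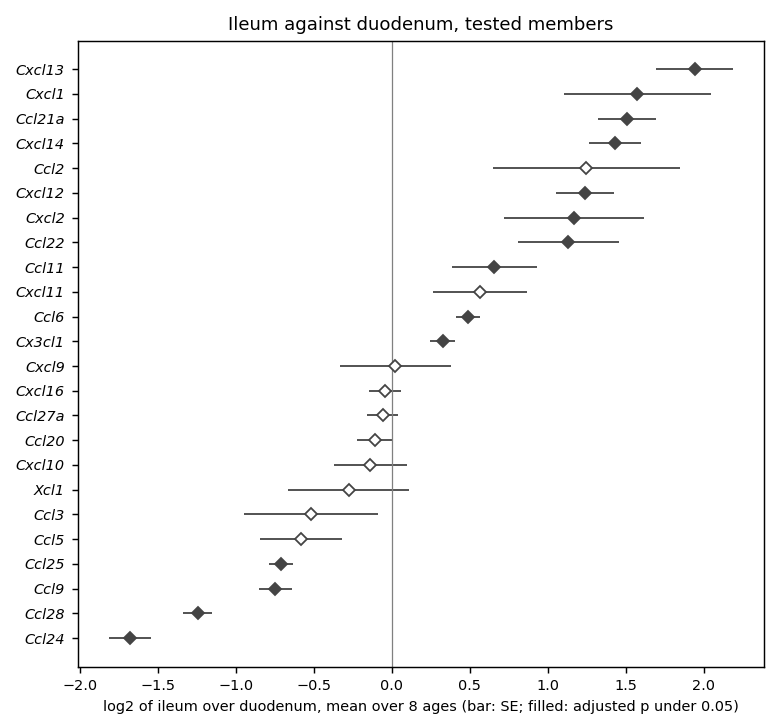
Log2 of ileum over duodenum, averaged over the 8 ages, for 24 tested members, with bars of 1 standard error and filled symbols where the adjusted p was under 0.05. Ccl21d is not drawn. Cxcl13 is at the top at 1.94 and Ccl24 at the bottom at -1.68.

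At day 0, 2 members passed between the regions (6.1% of all genes, with 2.97% higher and 3.14% lower), both lower in the ileum. They were Ccl28 (2.15-fold, adjusted p = 0.00847) and Ccl25 (1.64-fold, adjusted p = 0.0435). Ccl28 lost its call without duodenum day 0 sample 3 (adjusted p = 0.11) or ileum day 0 sample 3 (adjusted p = 0.0835). Ccl25 lost it without duodenum day 0 sample 2 (adjusted p = 0.1) or 3 (adjusted p = 0.238) or ileum day 0 sample 1 (adjusted p = 0.238) or 3 (adjusted p = 0.15). With all 48 samples neither passed (adjusted p = 0.256 for Ccl28 and 0.219 for Ccl25). Without the 2 duodenum samples that held both sex transcripts no member passed, and only 82 of 23521 genes did. At week 4, 5 members passed (28.4% of all genes), with Ccl6, Cxcl13 and Cxcl1 higher (14.5%) and Ccl24 and Ccl25 lower (13.9%) in the ileum. Ccl24 was 14.6-fold lower in the ileum then (log2 -3.87, SE 0.43, adjusted p = 3.43e-08), Cxcl13 8.25-fold higher (log2 3.04, SE 0.56, adjusted p = 0.000132) and Ccl6 2.15-fold higher (log2 1.10, adjusted p = 0.000262). Ccl25 was 1.53-fold lower (adjusted p = 0.0345), a call lost with all 48 samples (adjusted p = 0.137) and without duodenum week 4 sample 1 (adjusted p = 0.0874) or ileum week 4 sample 2 (adjusted p = 0.146) or 3 (adjusted p = 0.114). For Cxcl1, 29 counts in the ileum stood against 3 in the duodenum, a ratio with a 95% counting interval from 4.78 to 79.1, and its call was lost without duodenum week 4 sample 1 (adjusted p = 0.104) or 2 (adjusted p = 0.0859). The age pattern as a whole differed between the regions for 8 members (22.4% of all genes), namely Ccl24, Cxcl16, Ccl9, Ccl11, Cxcl14, Cxcl12, Ccl28 and Ccl21a, of which Ccl24 kept its call with all 48 samples. For the change from day 0 to week 4 alone it differed for Ccl24 and Ccl28 (5.99% of all genes, with 3.14% positive and 2.85% negative).

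Of 23 listed chemokine receptors, 19 could be tested between day 0 and week 4. In the duodenum 6 rose and 5 fell, beside 20.4% and 20.1% of all genes. The ileum had 8 that rose and 1 that fell, beside 21.5% and 20.4% of all genes. Ccr9, the receptor of Ccl25 and given for that reason after its values were seen, went from 0.887-2.86 CPM to 5.02-6.65 CPM in the duodenum (log2 1.64, SE 0.32, adjusted p = 6.38e-05) and from 1.15-1.95 CPM to 6.61-8.35 CPM in the ileum (log2 2.33, SE 0.33, adjusted p = 2.73e-07). Cxcr5, the receptor of Cxcl13 on B cells and follicular T cells, rose by log2 5.32 and 5.84 in duodenum and ileum, and Ccr6, the receptor of Ccl20, by 7.06 in the ileum. Ccr7, the receptor of Ccl21a, was at 0 counts in the ileum at day 0 and read 1.46 to 4.01 CPM at week 4. Cxcr6, the receptor of Cxcl16, rose by log2 3.41 in the ileum, and Ccr3, the receptor of Ccl24, by 2.77 in the duodenum, while Ccr4 fell there (log2 -3.95). Cxcr3, the receptor of Cxcl9, Cxcl10 and Cxcl11 and also given after its values were seen, did not pass between day 0 and week 4 (log2 0.99, SE 0.66, adjusted p = 0.236 in the duodenum, and 0.25, SE 0.62, adjusted p = 0.773 in the ileum). Of 13 cytokine genes whose products induce chemokines, 6 could be tested. Ltb (log2 3.69), which maintains lymphoid tissue, and Tnf (log2 3.54) rose in the duodenum and Il1a fell (log2 -5.72). In the ileum 5 rose, led by Tnf (6.01), Ltb (5.76) and Lta (4.89), and Il1a fell (-4.52). Ifng, the interferon that induces the Cxcr3 ligands and likewise given after its values were seen, was too low to test. It had no counts in any duodenum sample and read 0 to 0.186 CPM in the ileum at week 4.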

How the data were processed

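Total RNA of 48 intestine samples was sequenced on a NovaSeq instrument, per the labels' protocols. The deposited estimated counts per gene, whole numbers, came from tximport, as the authors' file name has it. The submitters' processing notes name STAR 2.6.1d, Salmon 0.14.2, DESeq2 1.30.1 and mm10. The annotation release and strand setting are not given in the sources used here. A scaled signal for 40 samples, deposited by the authors as normalized counts, equalled the count divided by 1 factor per column.

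Counts of 46 samples were fitted with edgeR 4.0.16 in R 4.3.3, with TMM scaling and 1 mean per group. The filterByExpr filter on the 16 groups kept 21986 genes. The quasi-likelihood test was two-sided, and p-values were adjusted by Benjamini-Hochberg over those genes and called under 0.05. The standard error of a log2 change is its size divided by the square root of F. Counting intervals of a ratio cover counting error only. CPM carry no pseudocount. Members are named if they averaged at least 3 CPM or passed between day 0 and week 4 with a change of at least 2-fold. From each other list, up to 4 called genes with the largest change per region are named. The members and lists were chosen with earlier results of these data known. Markers of natural killer, dendritic, lymphatic and adipose cells were also listed. Positions and overlaps come from GENCODE annotation of GRCm38, the same assembly as mm10, and promoters from RefSeq for 28 of 39 members. The procedure was tested on simulated data.

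The alternatives used size factors by relative log expression, no filter on low counts, DESeq2 1.42.0, all 48 samples, no day 4 samples, only the compared groups or region, each sample left out in turn, or the sample number as a replicate block. The age effects were also fitted with limma 3.58.1 on log2 of the signal plus 1 or 0.1. Leaving out the libraries with both Xist and Ddx3y, and adding a sex index, log2 of Xist over Ddx3y, were chosen after seeing the data.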

Additional observations from a re-analysis of the deposited data

Results flagged for a closer look

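The course over the 8 ages differed between duodenum and ileum, by the test of region against age in edgeR, for 8 members. The adjusted p was 1.16e-05 for Cxcl14, 0.000131 for Ccl24, 0.000216 for Ccl28, 0.000403 for Ccl21a, 0.000766 for Cxcl16, 0.00145 for Cxcl12, 0.00243 for Ccl11 and 0.0298 for Ccl9. With all 48 samples, which returns day 6 sample 3 of each region, 1 of these calls was kept. The change from day 0 to week 4 differed between the regions for Ccl24 (adjusted p = 0.00016) and Ccl28 (adjusted p = 0.0227).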

How the results depend on the processing

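Of 1752 repeats of 88 results for named members, 1654 kept direction and side of the threshold, 87 lost a call, 3 gained one and 8 changed sign. The sign changes were all of Cx3cl1 from day 0 to week 4, which had no call. Its log2 value in the duodenum was -0.028 without the day 4 samples, -0.0052 with only the compared groups and -0.14 without the libraries with both Xist and Ddx3y, and ran from -0.12 to 0.28 with each sample left out. In the ileum leave-one-out values ran from -0.40 to 0.10. Of 346 repeats of the counts, 322 stayed within 1.5 times. Without the libraries with both Xist and Ddx3y the duodenal count was 9 from day 0 to week 4 and 3 from day 0 to week 2, the regional count at day 0 was 0 (82 of all genes) and the count of regional differences in the change to week 4 was 1. From day 0 to week 2 in the ileum the count was 7 without the day 4 samples, 5 with only the compared groups and 6 with DESeq2. The count of members whose age pattern differed between regions was 1 with all 48 samples, 15 without the day 4 samples, 14 with DESeq2 and 7 to 13 with each sample left out. With all 48 samples the regional count was 0 at day 0 and 3 at week 4, and that of the change to week 4 was 1; leave-one-out counts were 0 to 2, 3 to 7 and 1 to 2. The cause was not tested.

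The replicate block gave 15 and 11 members from day 0 to week 4 in duodenum and ileum, as without it, and 13 for the region, where the call of Ccl11 was lost. Duodenum and ileum samples of one age and number correlated in their deviations from the group mean by -0.36 to 0.67 over 23 pairs, with 16 over 0.1 and a mean of 0.16, beside -0.08 for samples with different numbers. Libraries with Xist alone or Ddx3y alone were equally many in both regions at every age but day 0. The labels do not say whether same-numbered samples share an animal, and since not every pair was over 0.1 the fit without the block was kept. That choice does not exclude shared animals, and the regional p-values of that fit take the samples as independent. Members averaging under 0.1 CPM rest on a few counts in most samples, which limits what can be detected among them.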

Other observations

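Ileum day 4 sample 2 held the highest value of 7 members. It read 1.15 CPM of Ccl3, 0.728 CPM of Ccl4, 0.460 CPM of Cxcl2, 0.498 CPM of Cxcl3, 0.345 CPM of Ccl2, 0.307 CPM of Ccl12 and 5.25 CPM of Ccl21a. Ileum day 4 sample 3 read 0.671 CPM of Ccl3, 0.427 CPM of Cxcl2 and 0.285 CPM of Ccl2, whereas sample 1 read 0, 0.115 and 0 CPM of these. Ccl3 and Ccl4 are macrophage inflammatory proteins, and Ccl2 and Ccl12 attract monocytes. Neutrophil markers of that sample summed to 13.0 CPM beside 14.6 and 10.4 CPM in the other ileum day 4 samples, macrophage markers to 161 beside 155 and 105 CPM, and T cell markers to 9.27 beside 3.23 and 3.76 CPM. The age effect of Ccl3 passed in the ileum (adjusted p = 0.000114 by edgeR). Day 4 samples 2 and 3 held 30 and 33 of its counts there, and no other ileum sample more than 5. That test therefore rests on the samples described here and gives no separate support. Without the day 4 samples 21 members could be tested, in place of 25. In the duodenum the adjusted p of Ccl3 was 0.0645. It was 0.0412 with no filter and 0.0258 with that region's samples alone. Without week 4 sample 3 it was 0.0462, and by limma on log2 of the signal plus 1 it was 0.0428. The difference in age pattern between regions did not pass (adjusted p = 0.114). These samples were singled out after their values were seen.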
